A study of Mus musculus with 24 samples.

Results

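The response of wild type hind limb muscle to unloading was measured in 8 mice, which supplied 8 of the 24 arrays of the series. The HU group held 4 male B6129PF2/J mice, 6 weeks old, whose hind limbs were held off the cage floor for 6 days after 3 days of acclimation. The WB group held 4 male B6129PF2/J mice of the same age that stayed weight bearing. Gastrocnemius and plantaris were harvested as 1 sample, and each mouse gave 1 array (Affymetrix Mouse Genome 430A 2.0), so the replicates were separate animals. B6129PF2/J is a second-generation hybrid stock of C57BL/6 and 129 mice, so littermates can differ in the alleles they carry and the 4 mice of a group were not genetically identical. The question was which mRNAs stood higher or lower after unloading. All 4 HU arrays and all 4 WB arrays were chosen by their labels, and no measured value was used to choose them.

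Skeletal muscle taken out of use loses protein and fibre size. The loss is known to involve faster protein breakdown through ubiquitin ligases and the proteasome, slower protein synthesis, and a shift in the genes tied to contraction and fuel use. Gastrocnemius and plantaris are mostly fast-fibre muscles that join the Achilles and plantaris tendons, so the dissected tissue also holds connective tissue, vessels, nerve and resident immune cells. In such tissue fewer cells of a type and less RNA per cell cannot be told apart.

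The tissue matched its label. Of 15 muscle fibre markers 14 were on the array and all 14 were tested, and the summed intensity of these 14 ran between 57191 and 58213 in HU muscle and between 55971 and 57562 in WB muscle. Neutrophil markers did not pass the filter (0 of 11 on the array), lymphocyte markers were represented by Ptprc alone, and erythroid markers by Alas2 alone. The 8 arrays had nearly the same scale, with median intensities of 11.6 to 11.8 in HU muscle and 11.7 to 11.9 in WB muscle. The HU mice were less alike than the WB mice. After removing the mean of all 8 arrays, HU replicates 3 and 4 correlated at 0.76 across probe sets, HU replicates 1 and 2 at 0.31, and the pairs that crossed between these 2 sets at -0.26 to -0.046, as a description across probe sets that share the same arrays. On the first principal component, which held 38.5% of the variance, HU replicate 2 lay at 1.23 and the other HU arrays at 11.9 to 18.7, against -15.6 to -10.3 for the WB arrays.

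Of 22626 probe sets that are not controls, 9327 had an intensity above 20 on at least 4 of the 8 arrays and were tested with limma. After Benjamini-Hochberg adjustment over these 9327, 240 probe sets were higher in HU than in WB muscle (2.57% of those tested, naming 166 genes) and 159 were lower (1.7%, naming 122 genes). Of the calls, 60.2% were higher, a share that was 48% after a second quantile normalization of the 8 arrays. The median log2 change (HU minus WB) was 0.53 among the higher calls and -0.51 among the lower calls, and 21 and 9 of them changed by at least 1 on the log2 scale. The median over all probe sets tested was 0.03. In 237 of the 240 and 156 of the 159 the HU and WB arrays did not overlap, where 9.39% of all probe sets tested had every HU array above every WB array and 5.93% had every one below. Of the called probe sets 209 of the higher and 137 of the lower stood above 20 on all 8 arrays. The counts depended on single mice: they ran between 43 and 395 higher and between 29 and 222 lower when 1 array was left out, the lowest without HU replicate 4 and the highest without HU replicate 2.

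**Figure D1:**
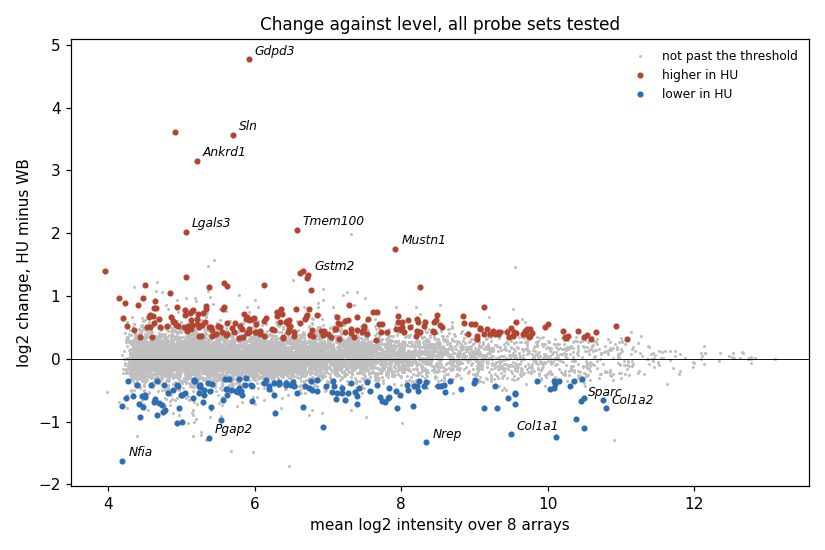
Each point is 1 of the 9327 probe sets tested, placed by its mean log2 intensity over the 8 arrays (x) and its log2 change, HU minus WB (y). Red points were called higher (240) and blue points lower (159); calls lie along the whole range of levels, with the widest rises below a log2 intensity of 8 and the collagen genes among the brightest that fell.

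Called probe sets were found at every level, with 66 higher and 52 lower among the 3700 whose mean intensity was under 50, and 13 higher and 15 lower among the 345 whose mean was over 1000. In this brightest class 3.77% were higher and 4.35% lower, and the largest rise there was 0.55 on the log2 scale against a largest fall of -1.24. Among genes with 2 or more tested probe sets, 23 of the 80 with a higher call had at least 2 such calls, and 20 of the 55 with a lower call. Only Rab6a, a GTPase of Golgi transport, was called both ways by its 2 probe sets, with log2 changes of 0.30 and -0.53.

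Calls that held in each of the 8 fits that left out 1 array were made for 32 higher and 26 lower probe sets, which named 24 and 20 genes. The higher genes were Ankrd1, Mustn1, Ifrd1, Gstm2, Klf10, Ppp1r15a, Chrnb1, Ccn1, Fbxo9, Snrpd3, Gprc5b, Pts, S100a4, Ebf1, Dhps, Ap4s1, Dmd, Snhg1, Ptch1, Ddx5, Pabpn1, Cd99, Eif5 and Cygb. The lower genes were Nfia, Pgap2, Col1a1, Ecrg4, Col1a2, Golm1, Creb3l1, Mlf1, Asb10, Sparc, Asb12, Wls, Serpinf1, Fdx1, 5031439G07Rik, Rmdn1, Comp, Mpnd, Col4a1 and Slc41a1. A gene is named here if at least 1 of its probe sets held. The brightest probe sets of Ccn1, Dmd and Eif5, described below, held in only 5, 2 and 2 of these fits. The set of genes was read off after the values were seen and carries no test of its own.

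Genes that rose and kept their call without each array in turn included a stretch-response protein and a nuclear muscle protein. Ankrd1 (the cardiac ankyrin repeat protein, which binds titin in the sarcomere and also enters the nucleus) read 300, 64.2, 81.3 and 94.2 in the 4 HU muscles, against 13.1, 10.3, 11 and 15.9 in the 4 WB muscles. Every HU value was above every WB value, HU replicate 1 was the highest of the HU mice, and no WB value passed the array floor of 20. Ankrd1 therefore passed the filter on its HU values alone, and the size of its change is uncertain. The log2 change was 3.15 ± 0.40 (adjusted p = 0.0068, with errors given as SE here and in the log2 changes that follow), and a second Ankrd1 probe set gave 3.61 ± 0.41 (adjusted p = 0.0038). Mustn1, a small nuclear protein of muscle and skeleton, read 619, 413, 410 and 370 in HU muscle and 159, 113, 142 and 119 in WB muscle. All HU mice lay above all WB mice, and the change was 1.75 ± 0.17 (adjusted p = 0.0014).

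Ifrd1, a transcriptional coregulator induced by growth factors, read 141, 149, 160 and 219 in HU muscle and 71.7, 85, 54.5 and 45.3 in WB muscle (1.4 ± 0.20, adjusted p = 0.0097). Gstm2, a mu-class glutathione transferase, read 175, 130, 188 and 189 in HU muscle and 59.3, 75.2, 65.5 and 67.8 in WB muscle (1.34 ± 0.13, adjusted p = 0.0014). Neither gene had an HU mouse within the WB range. The near paralog Gstm1 was not called by any of its 3 probe sets, whose log2 changes were 0.18, 0.11 and 0.05. Ppp1r15a encodes the phosphatase subunit GADD34, which reverses the stress phosphorylation of eIF2α. It read 61.6, 55.5, 79.6 and 103 in HU muscle and 33.1, 32.7, 31.3 and 29.4 in WB muscle (1.2 ± 0.17, adjusted p = 0.0092). The WB mice were closely grouped, and the HU mice were spread out with replicate 4 the highest. Klf10, a zinc finger factor induced by TGF-beta, read 51.1, 67.4, 42.5 and 52.5 in HU muscle and 16.7, 17.5, 26.1 and 27.5 in WB muscle (1.30 ± 0.19, adjusted p = 0.01).

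At the cell surface, Tnfrsf12a (Fn14, the receptor for the cytokine TWEAK) read 168, 160, 117 and 229 in HU muscle and 61.4, 93.7, 70.5 and 49.7 in WB muscle, a log2 change of 1.29 ± 0.22 (adjusted p = 0.019). HU replicate 3 was the lowest of the HU mice for this gene and still above all WB mice, although the adjusted p reached 0.055 without WB replicate 1. Chrnb1, the beta subunit of the muscle acetylcholine receptor, read 152, 87.2, 98.5 and 92.6 in HU muscle and 42.3, 48.3, 46.3 and 49.2 in WB muscle (1.18 ± 0.16, adjusted p = 0.0091). The secreted matrix-associated protein Ccn1 (Cyr61) read 166, 121, 171 and 187 in HU muscle and 96.8, 62.4, 90.4 and 56.2 in WB muscle (1.10 ± 0.19, adjusted p = 0.021), and its second probe set gave 1.15 ± 0.18. The first Ccn1 probe set kept its call in 5 of the 8 fits that left out 1 array, and the second in all 8. HU and WB mice did not overlap for any of these 3 genes.

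**Figure D2:**
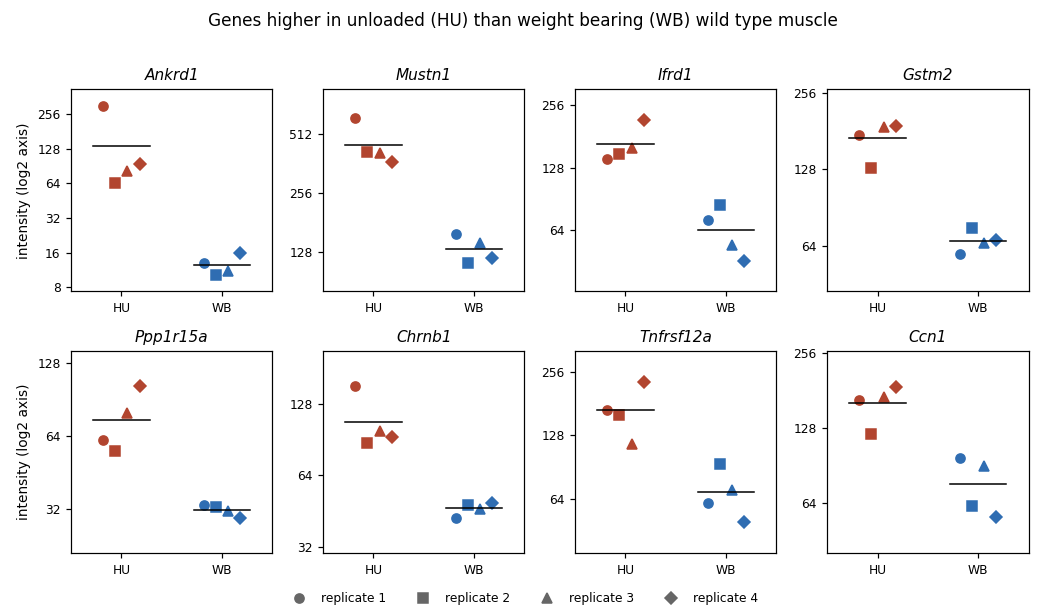
Intensity (log2 axis) of 8 genes in the 4 HU and the 4 WB mice, with 1 point a mouse, marker shape for the replicate number and a line for the group mean; for genes with several probe sets the one with the highest mean log2 intensity is drawn. In all 8 panels the HU points lie above the WB points, and HU replicate 1 is the highest for Ankrd1 (300), Mustn1 (619) and Chrnb1 (152).

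Upstream sequence is shown for 4 of the rising genes whose promoter held the letters CATTCC (the MCAT element bound by TEAD factors in muscle genes) and for Col1a2, a falling collagen gene, so that the stretches can be set beside the values. Each line gives the 130 bases before the first listed RefSeq start (GRCm38.p6), 5′ to 3′ on the gene's strand. Capitals mark, on either strand, the MCAT letters, the CCAAT box and the TATA box searched as TATAAA, and no marked motif overlaps another.
Ankrd1, chr19:36119845-36119974, minus strand: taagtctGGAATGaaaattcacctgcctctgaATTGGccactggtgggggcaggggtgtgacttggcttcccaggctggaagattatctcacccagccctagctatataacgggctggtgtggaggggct
Ccn1, chr3:145649986-145650115, minus strand: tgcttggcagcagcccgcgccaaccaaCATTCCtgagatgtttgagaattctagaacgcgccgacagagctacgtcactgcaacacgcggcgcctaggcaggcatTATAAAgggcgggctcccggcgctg
Gstm2, chr3:107986421-107986550, minus strand: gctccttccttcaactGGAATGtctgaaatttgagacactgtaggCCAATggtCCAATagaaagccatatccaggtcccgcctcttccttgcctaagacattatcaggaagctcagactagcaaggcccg
Chrnb1, chr11:69795938-69796067, minus strand: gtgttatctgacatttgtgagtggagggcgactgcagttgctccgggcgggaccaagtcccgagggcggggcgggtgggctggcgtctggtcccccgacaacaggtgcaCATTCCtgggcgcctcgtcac
Col1a2, chr6:4505488-4505617, plus strand: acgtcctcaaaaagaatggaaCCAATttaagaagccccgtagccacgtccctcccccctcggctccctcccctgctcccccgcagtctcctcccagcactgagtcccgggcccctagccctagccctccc

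Over the 250 bases before the start, CATTCC on either strand was found in 17 of 148 called-higher genes with a listed promoter (11.5%), 11 of 102 called-lower genes (10.8%) and 492 of 4729 tested genes (10.4%). CCAAT on either strand was found in 39.9% of the higher, 47.1% of the lower and 36.2% of the tested genes. The kappaB consensus, the letters read by NF-kappaB dimers, was found in 7 of the 148 higher genes (4.73%), 9 of the 102 lower genes (8.82%) and 8.42% of the tested genes. These shares describe letters in a window and were not tested. In Ankrd1, CATTCC was present at -210 to -205 and again at -123 to -118.

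Some of the largest rises were in genes at or near the array floor in weight-bearing muscle. Gdpd3, a glycerophosphodiester phosphodiesterase family member, read 262, 204, 386 and 478 in HU muscle and 5.75, 6.19, 5.45 and 92.4 in WB muscle (4.77 ± 0.80, adjusted p = 0.017). WB replicate 4 was 92.4 while the other WB mice lay between 5.45 and 6.19, and without that mouse the change was 5.77 (adjusted p = 6.0e-05). Sln, the peptide sarcolipin that inhibits the calcium pump of the sarcoplasmic reticulum, read 1024, 77.6, 103 and 127 in HU muscle and 13.9, 18.3, 17.5 and 11.8 in WB muscle (3.57 ± 0.66, adjusted p = 0.023). HU replicate 1 stood far above the other HU mice, and without it the change was 2.73. Lgals3, the lectin galectin-3, showed the same order of mice, at 212, 34.4, 44.4 and 62.9 in HU muscle and 15, 19.1, 18.1 and 14.5 in WB muscle (2.02 ± 0.45, adjusted p = 0.041). The Sln call held in only 3 and the Lgals3 call in only 2 of the 8 fits that left out 1 array, with adjusted p of up to 0.063 and 0.094. All WB values of Sln and Lgals3 lay under the array floor, so both genes passed the filter on their HU values alone.

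Among the brighter rises, Ybx3, a cold shock domain protein that binds DNA and RNA, read 2311, 2053, 2525 and 2475 in HU muscle and 1666, 1629, 1606 and 1629 in WB muscle (0.52 ± 0.08, adjusted p = 0.015). At this probe set the WB values were close to each other, and each HU value was above them. A brighter Ybx3 probe set read 3056, 2864, 2820 and 2552 in HU muscle and 2118, 2080, 2067 and 2516 in WB muscle. The groups did not overlap there, but it was not called (0.36 ± 0.09, adjusted p = 0.056). Smyd2, a lysine methyltransferase found in the sarcomere, read 632, 578, 929 and 899 in HU muscle and 447, 461, 409 and 364 in WB muscle (0.83 ± 0.16, adjusted p = 0.025). Here HU replicates 3 and 4 stood above HU replicates 1 and 2, and the Smyd2 call held in only 2 of the 8 fits that left out 1 array. Tecr, the reductase that closes each round of very long chain fatty acid elongation, rose by 0.55 ± 0.10 (adjusted p = 0.021).

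The HU mice differed among themselves in 2 ways that single genes show, chosen here after their values were seen. HU replicate 1 was the highest for Sln, Lgals3 and Ankrd1, as above, and for Chrna1, the alpha subunit of the acetylcholine receptor, which read 354, 80.8, 122 and 118 in HU muscle and 67.1, 58.8, 61.5 and 50.6 in WB muscle (1.26 ± 0.36, adjusted p = 0.075, not called). Gadd45a, a stress protein of denervated muscle, read 385, 45.6, 39.4 and 31.5 in HU muscle and 23.3, 31.4, 20.6 and 24.8 in WB muscle (1.47 ± 0.65, adjusted p = 0.2). By contrast, HU replicates 3 and 4 led for Fbxo32, the ubiquitin ligase atrogin-1 of atrophying muscle, which read 437, 247, 745 and 758 in HU muscle and 319, 217, 311 and 270 in WB muscle. HU replicate 2 lay within the WB range for Fbxo32, and this probe set was not called (0.85 ± 0.32, adjusted p = 0.14), nor was the second one (1.06 ± 0.36, adjusted p = 0.12).

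Tmem100, a membrane protein downstream of BMP and ALK1 signalling in vessels, also stood highest in HU replicates 3 and 4. It read 162, 89.3, 329 and 297 in HU muscle and 65.4, 34.7, 42.2 and 50.3 in WB muscle (2.05 ± 0.37, adjusted p = 0.021). Cirbp, the cold-inducible RNA-binding protein, read 60.2, 43, 104 and 108 in HU muscle and 37.5, 28.2, 41 and 27.1 in WB muscle (1.16 ± 0.28, adjusted p = 0.048). In both genes HU replicate 2 was the HU mouse nearest to the WB mice. Nrep, a small protein of regenerating nerve and myofibroblasts, mirrored this on the falling side, at 233, 411, 151 and 122 in HU muscle and 533, 468, 604 and 464 in WB muscle (-1.33 ± 0.31, adjusted p = 0.045). A second Nrep probe set overlapped and was not called (-1.02 ± 0.33, adjusted p = 0.096). Of the 8 fits that left out 1 array, the call held in 4 for Tmem100, 1 for Cirbp and 1 for Nrep. The adjusted p rose to 0.061 for Tmem100, 0.12 for Cirbp and 0.11 for Nrep when the least favourable array was left out.

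**Figure D3:**
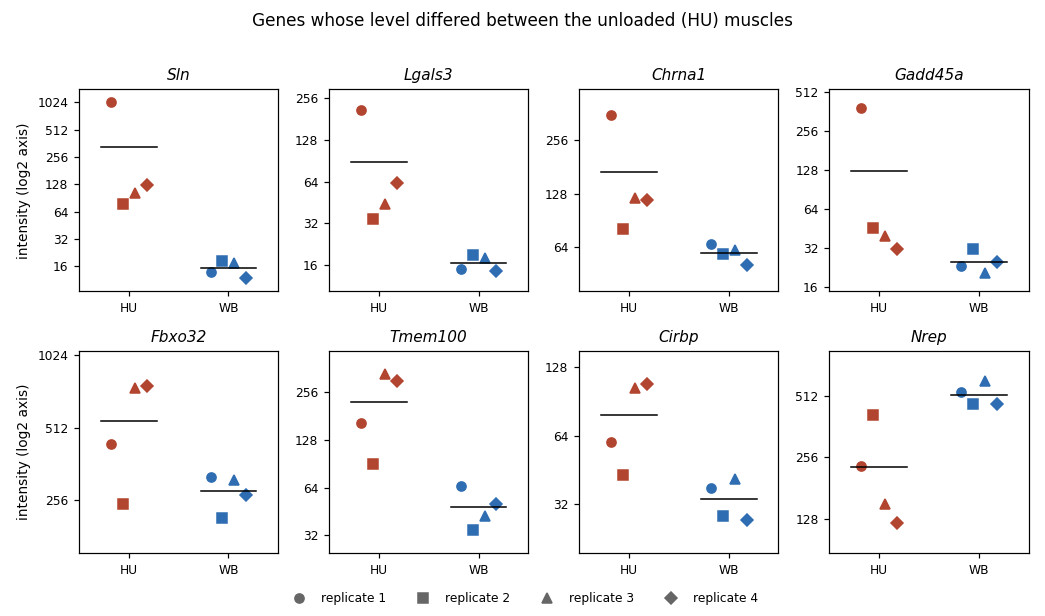
Intensity (log2 axis) in the 4 HU and the 4 WB mice of 8 genes whose HU mice were far apart, drawn as in the plot of rising genes. HU replicate 1 stands apart for Sln (1024), Lgals3 (212), Chrna1 (354) and Gadd45a (385), while HU replicates 3 and 4 are the extreme mice for Fbxo32, Tmem100, Cirbp and Nrep.

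Among the genes that fell were 3 of the collagen matrix. Col1a1 and Col1a2 encode the chains of type I collagen, the main fibre of tendon and of the sheaths around muscle. Col1a1 read 453, 545, 450 and 459 in HU muscle and 1410, 1065, 1007 and 940 in WB muscle, and all HU mice lay at or below 545 while no WB mouse was under 940. The log2 change was -1.2 ± 0.13 (adjusted p = 0.0025). A second, dimmer Col1a1 probe set read 60.7, 59.6, 63.7 and 55.6 in HU muscle and 53.7, 63.6, 57.8 and 47.8 in WB muscle, overlapped and was not called (0.11 ± 0.10, adjusted p = 0.54). Col1a2 read 1233, 1430, 1385 and 1341 in HU muscle and 2583, 2144, 2318 and 2311 in WB muscle (-0.79 ± 0.09, adjusted p = 0.0025), with -0.96 ± 0.09 from its second probe set. Sparc, a collagen-binding matrix protein, read 1106, 1178, 1166 and 1030 in HU muscle and 1872, 1831, 1747 and 1653 in WB muscle (-0.67 ± 0.08, adjusted p = 0.0053), and -0.72 from a second probe set. All 3 genes, at the probe sets whose 8 values are given first, were called without each array in turn.

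Creb3l1, an endoplasmic reticulum membrane transcription factor known in bone to activate Col1a1, read 20.7, 21.5, 20.1 and 20.5 in HU muscle and 34.4, 34.6, 39.2 and 37.8 in WB muscle (-0.81 ± 0.08, adjusted p = 0.0014). The HU values lay close together just above 20, so the level there is little above the floor. Serpinf1, the secreted protein PEDF that binds collagen, read 295, 341, 348 and 310 in HU muscle and 474, 460, 498 and 433 in WB muscle (-0.53 ± 0.09, adjusted p = 0.014). Col4a1, a chain of basement membrane collagen, read 133, 129, 113 and 111 in HU muscle and 174, 183, 177 and 169 in WB muscle at one probe set (-0.54 ± 0.09, adjusted p = 0.014) and was not called at its other (-0.39 ± 0.11, adjusted p = 0.07).

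The collagen and matrix list held 36 tested genes, of which 3 fell and 1 rose, where 1.7% of all probe sets tested fell and 2.57% rose. Its median change was -0.18, against 0.03 over all probe sets tested, and 26 of the 36 values were negative. The summed intensity of the list ran between 7335 and 8629 in HU muscle and between 10106 and 12168 in WB muscle, without overlap. Not every collagen followed: Col3a1, the chain of type III collagen, read 1728, 1554, 1021 and 894 in HU muscle and 1924, 1861, 1569 and 1435 in WB muscle (-0.43 ± 0.20, adjusted p = 0.23), with HU replicates 1 and 2 in the WB range. Postn, the matricellular protein periostin, was the rising member at 143, 134, 142 and 87.7 in HU muscle and 75.5, 67.4, 76.2 and 69.5 in WB muscle (0.79 ± 0.15, adjusted p = 0.024). Lox, the enzyme that crosslinks collagen, was not called (0.27 and 0.17, adjusted p = 0.42 and 0.59).

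Some tendon markers were also lower. Of 10 tested, 4 fell and none rose, with a median of -0.50 and 8 negative values, where 1.7% of all probe sets tested fell. Tnmd (tenomodulin, a membrane protein of tendon cells) read 167, 229, 256 and 237 in HU muscle and 414, 329, 385 and 357 in WB muscle (-0.75 ± 0.14, adjusted p = 0.021). Kera, the corneal and tendon proteoglycan keratocan, read 118, 149, 150 and 113 in HU muscle and 285, 182, 194 and 219 in WB muscle (-0.72 ± 0.15, adjusted p = 0.032). Comp, which binds collagen in tendon and cartilage, read 73, 75.8, 79.2 and 87.2 in HU muscle and 121, 107, 118 and 116 in WB muscle (-0.55 ± 0.08, adjusted p = 0.012). No HU mouse reached the WB range for these 3 genes, and Comp alone among them was called without each array in turn. The Tnmd call held in 5 and the Kera call in only 1 of the 8 fits that left out 1 array. Cilp2 fell by 0.52 ± 0.09 in log2 units (adjusted p = 0.022), while Thbs4, another tendon and muscle matrix protein, gave 0.04 ± 0.18.

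Of 13 tested fibroblast markers only the 2 type I collagen chains, which the matrix list also holds, were called, both lower, and the list median was -0.02. Over all probe sets tested 1.7% were lower. Pdgfra, the receptor that marks interstitial fibroblasts, read 99.1, 107, 108 and 100 in HU muscle and 100, 103, 111 and 105 in WB muscle. Dcn, the fibroblast proteoglycan decorin, read 1327, 1465, 1568 and 1356 in HU muscle and 1558, 1495, 1531 and 1546 in WB muscle (-0.10 ± 0.08). The groups overlapped for both. The summed tendon markers ran between 1799 and 2515 in HU muscle and between 2351 and 3004 in WB muscle, and the part of tendon tissue in the dissected samples in the collagen values was not tested.

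**Figure D4:**
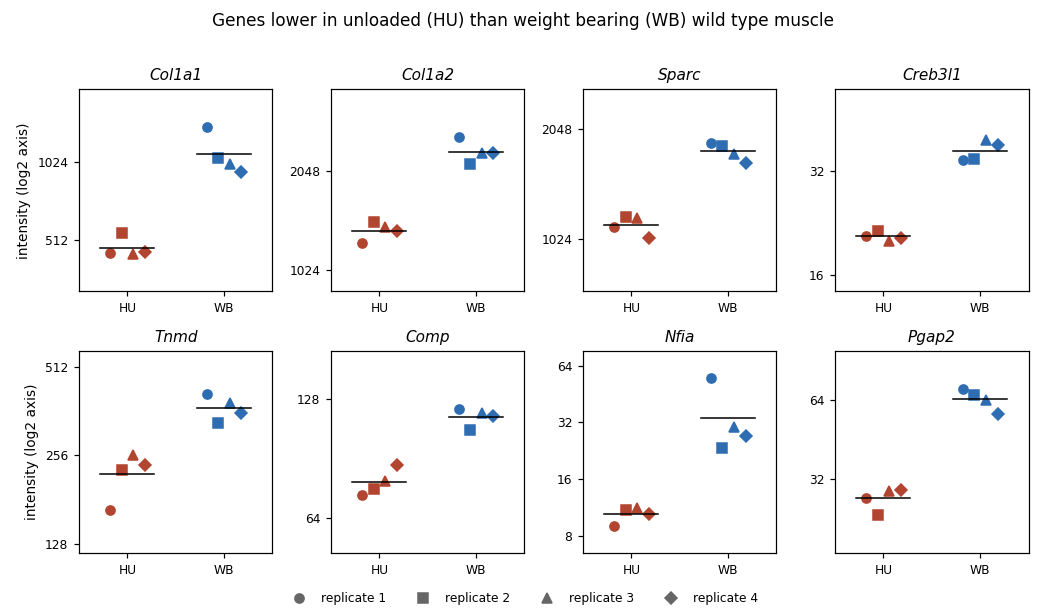
Intensity (log2 axis) of 8 genes in the 4 HU and the 4 WB mice, drawn as in the plot of rising genes. All HU points lie below all WB points in each panel; the HU mice are close together for Creb3l1 (20.1 to 21.5) and Col1a2 (1233 to 1430), and WB replicate 1 is the highest for Col1a1 (1410) and Nfia (54.8).

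Outside the matrix, Pgap2, which remodels lipid anchors of cell surface proteins in the Golgi, read 27, 23.2, 28.7 and 28.9 in HU muscle and 70.5, 67, 63.9 and 56.8 in WB muscle (-1.26 ± 0.10, adjusted p = 0.0014). Its second probe set was also lower (-1.0 ± 0.14, adjusted p = 0.0091). Golm1, a Golgi membrane protein, read 49.3, 69.9, 56.4 and 55.1 in HU muscle and 109, 107, 108 and 93.8 in WB muscle (-0.86 ± 0.11, adjusted p = 0.0075). Nfia, a transcription factor of the nuclear factor I family, read 9.05, 11, 11.3 and 10.5 in HU muscle and 54.8, 23.4, 30.3 and 27.1 in WB muscle (-1.62 ± 0.22, adjusted p = 0.0091). All HU values of Nfia lay under the floor of 20, where the size of a change is uncertain, so Nfia passed the filter on its WB values alone. Ecrg4, a secreted peptide precursor, fell by 1.02 ± 0.16 in log2 units (adjusted p = 0.014). Ramp1, the partner of the receptor for the neuropeptide CGRP, read 46, 132, 93.7 and 86.3 in HU muscle and 170, 200, 203 and 149 in WB muscle (-1.09 ± 0.26, adjusted p = 0.048). Its call held in only 2 of the 8 fits that left out 1 array, with adjusted p of up to 0.12.

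Mlf1, a muscle-rich adaptor protein, read 452, 574, 477 and 433 in HU muscle and 947, 809, 790 and 771 in WB muscle (-0.78 ± 0.11, adjusted p = 0.0091). Asb10 and Asb12, members of a family of ubiquitin ligase adaptors, fell by 0.77 ± 0.11 (adjusted p = 0.01) and fell by 0.66 ± 0.11 (adjusted p = 0.014) in log2 units. Asb10 read 67.6, 81.4, 80.6 and 80 in HU muscle and 143, 146, 135 and 108 in WB muscle, without overlap. Socs2, a feedback inhibitor of growth hormone signalling, read 27.2, 32.8, 15.9 and 23 in HU muscle and 36.5, 43.8, 42.5 and 42.3 in WB muscle (-0.79 ± 0.19, adjusted p = 0.048). The Socs2 call held in only 1 of the 8 fits that left out 1 array, with adjusted p of up to 0.12.

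Some genes of fuel use fell, most but not all of them mitochondrial. In the oxidative phosphorylation list 6 of 77 tested genes were lower and 0 higher, with a median of -0.20 and 66 negative values. Over all probe sets tested, 1.7% were lower and 2.57% higher. Among brighter probe sets the share lower was 2.57% at a mean intensity of 200 to 1000 and 4.35% over 1000. In the list of the citrate cycle and fatty acid oxidation 4 of 40 were lower and 0 higher (median -0.16, 36 negative). These 4 were Lpl, Hadh, Acaa2 and Mdh1, described below. With the 8 Nfkb1-/- arrays added to the fit for a better estimate of the spread, 24 and 8 members were lower and none higher. That fit also called more probe sets in general, with 348 of all 9327 tested lower and 500 higher. The summed intensity of the oxidative phosphorylation genes ran between 88591 and 100571 in HU muscle and between 102301 and 110512 in WB muscle. HU replicate 2 had the smallest mean change of the HU mice in that list (-0.07 on the log2 scale relative to the WB mean, against -0.26 to -0.16 in the others).

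Cox7a1, the muscle isoform of a cytochrome oxidase subunit, read 470, 701, 586 and 535 in HU muscle and 990, 974, 819 and 745 in WB muscle (-0.63 ± 0.14, adjusted p = 0.037). Ndufs8, a complex I subunit, read 860, 990, 970 and 1013 in HU muscle and 1321, 1433, 1175 and 1145 in WB muscle (-0.40 ± 0.10, adjusted p = 0.048). Both were lower in every HU mouse than in any WB mouse. Lpl, the lipase that frees fatty acids from circulating lipoproteins, read 1201, 1468, 1094 and 945 in HU muscle and 1646, 1931, 1734 and 1856 in WB muscle (-0.62 ± 0.13, adjusted p = 0.029). Hadh and Acaa2, enzymes of fatty acid beta-oxidation, gave -0.43 ± 0.10 (adjusted p = 0.042) and -0.42 ± 0.10 (adjusted p = 0.045), and Mdh1, cytosolic malate dehydrogenase, gave -0.36 ± 0.09 (adjusted p = 0.047). The other Mdh1 probe sets were not called (-0.13 and -0.04, adjusted p = 0.31 and 0.88). Nor were the other Acaa2 probe sets (-0.34 and -0.29, adjusted p = 0.09 and 0.22). Each of these 6 genes lost its call in at least 6 of the 8 fits that left out 1 array.

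In the list of ketone body use and creatine 2 of 8 tested genes were lower, with a median of -0.29, where 1.7% of all probe sets tested were lower. Oxct1, the enzyme that commits ketone bodies to oxidation, read 464, 621, 366 and 318 in HU muscle and 736, 751, 642 and 811 in WB muscle (-0.78 ± 0.18, adjusted p = 0.046). Another Oxct1 probe set was also lower (-0.78 ± 0.18, adjusted p = 0.041). The dimmest overlapped and was not called (-0.55 ± 0.25, adjusted p = 0.21). Ckmt2, the sarcomeric mitochondrial creatine kinase, read 1386, 1849, 1177 and 1191 in HU muscle and 2143, 2207, 2151 and 2156 in WB muscle (-0.65 ± 0.13, adjusted p = 0.029). The WB mice were close to each other for Ckmt2, and HU replicate 2 was the HU mouse nearest to them in both genes. The Oxct1 and Ckmt2 calls each held in only 1 of the 8 fits that left out 1 array. Dgat2, which makes triglyceride, read 29.7, 30, 36.7 and 33.6 in HU muscle and 58.5, 65.3, 58.3 and 41.6 in WB muscle (-0.77 ± 0.14, adjusted p = 0.021). A second Dgat2 probe set overlapped and was not called (-0.48 ± 0.13, adjusted p = 0.067). Glycolysis and glycogen genes had 0 of 28 called in either direction (median 0.01). Aldoa, muscle aldolase, read 6508, 6288, 7049 and 7089 in HU muscle and 6513, 6459, 6236 and 6077 in WB muscle.

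The contractile genes of fast fibres were not called, with 0 of 14 and a median of 0.02. The slow fibre list had 1 of 11 called, higher, with a median of 0.37 and 9 positive values, and 0 called with the 16 arrays of wild type and Nfkb1-/- mice. With the wild type arrays, 2.57% of all probe sets tested were higher and 1.7% lower, so lists this short can hold 0 or 1 call at the general share. Tnni1, slow skeletal troponin I, read 387, 433, 298 and 374 in HU muscle and 227, 216, 297 and 224 in WB muscle (0.63 ± 0.14, adjusted p = 0.034). HU replicate 3 (298) and WB replicate 3 (297) all but met. Myh7, slow myosin heavy chain, gave 0.58 ± 0.15 (adjusted p = 0.054) and Tnnc1, slow troponin C, gave 0.59 ± 0.15 (adjusted p = 0.057), and WB replicate 3 was the highest WB mouse for both. Mb, the oxygen store myoglobin, which is on the same list, gave -0.14 ± 0.07. Of the other genes of muscle structure, Dmd (dystrophin) rose by 0.60 ± 0.11 (adjusted p = 0.025) at the probe set used in the lists. That probe set kept its call in only 2 of the 8 fits that left out 1 array. Itga7 (the laminin receptor of fibres) rose by 0.63 ± 0.12 (adjusted p = 0.025). Myl4 (an embryonic and atrial myosin light chain) rose by 1.17 ± 0.22 (adjusted p = 0.024). It read 32.7, 23.3, 40.1 and 42.9 in HU muscle and 15.1, 10.4, 17.2 and 19.1 in WB muscle. All WB values of Myl4 lay under the array floor, so it passed the filter on its HU values alone. The size of its change is uncertain, and its call held in 4 of the 8 fits that left out 1 array. Bag3, a chaperone partner at the Z-disc, fell by 0.54 ± 0.10 in log2 units (adjusted p = 0.023), reading 136, 120, 114 and 146 in HU muscle and 195, 199, 184 and 170 in WB muscle.

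Some genes for making and handling RNA and protein rose. Of 41 tested cytosolic ribosomal protein genes 6 were higher and 0 lower, with a median of 0.21 and 38 positive values, and 16 were higher with the 16 arrays of wild type and Nfkb1-/- mice. With the wild type arrays alone, 2.57% of all probe sets tested were higher. The share was 4.65% at a mean intensity of 200 to 1000 and 3.77% over 1000. With the 16 arrays, 500 of all 9327 probe sets tested were higher. Rplp2, a protein of the ribosomal stalk, read 2003, 1731, 1914 and 1895 in HU muscle and 1299, 1417, 1493 and 1394 in WB muscle (0.43 ± 0.08, adjusted p = 0.024). Rps20 rose by 0.34 ± 0.08, Rps19 by 0.40 ± 0.09, Rpl22 by 0.37 ± 0.08 and Rpl11 by 0.36 ± 0.09 (adjusted p between 0.034 and 0.048), while a second Rpl22 probe set gave -0.06 ± 0.14. A second Rps20 probe set was not called (0.33 ± 0.09, adjusted p = 0.067). Of the 8 fits that left out 1 array, the Rplp2 call held in 4. The calls of Rps20, Rps19, Rpl22 and Rpl11 each held in 1. The summed intensity of the list ran between 49406 and 55700 in HU muscle and between 44580 and 46106 in WB muscle, without overlap. Ribosomal protein genes have many processed copies in the genome, and a probe set may read more than 1 of them. Mitochondrial ribosomal proteins, by comparison, had 1 of 74 called, Mrpl55 (0.47 ± 0.11), and a median of -0.01.

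Of 46 RNA binding and splicing genes 8 were higher and 0 lower, with a median of 0.15 and 36 positive values. The share of all probe sets tested that were higher was 2.57%. Ddx5, an RNA helicase, read 586, 517, 650 and 569 in HU muscle and 370, 406, 350 and 324 in WB muscle (0.68 ± 0.10, adjusted p = 0.01), and its call held without each array in turn. Of the other Ddx5 probe sets, a pair was also higher (0.68 and 0.75) and the rest were not called (-0.23 to 0.26). Clk4, a kinase of splicing factors, rose by 0.63 ± 0.11 (adjusted p = 0.021), and Srsf5, a serine- and arginine-rich splicing factor, by 0.54 ± 0.11 (adjusted p = 0.031). A second Clk4 probe set overlapped and was not called (0.39 ± 0.14, adjusted p = 0.12). The summed intensity of the list ran between 13419 and 14357 in HU muscle and between 11962 and 12284 in WB muscle. Eif5, the translation factor that triggers GTP hydrolysis at the start codon, was the member called of 47 translation factors (0.59 ± 0.12, adjusted p = 0.028). At this probe set the Eif5 call held in only 2 of the 8 fits that left out 1 array. Dhps, which makes the hypusine residue of eIF5A, read 46.6, 41.3, 47.5 and 51.1 in HU muscle and 27, 29.2, 27.9 and 24.9 in WB muscle (0.77 ± 0.09, adjusted p = 0.0043).

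**Figure D5:**
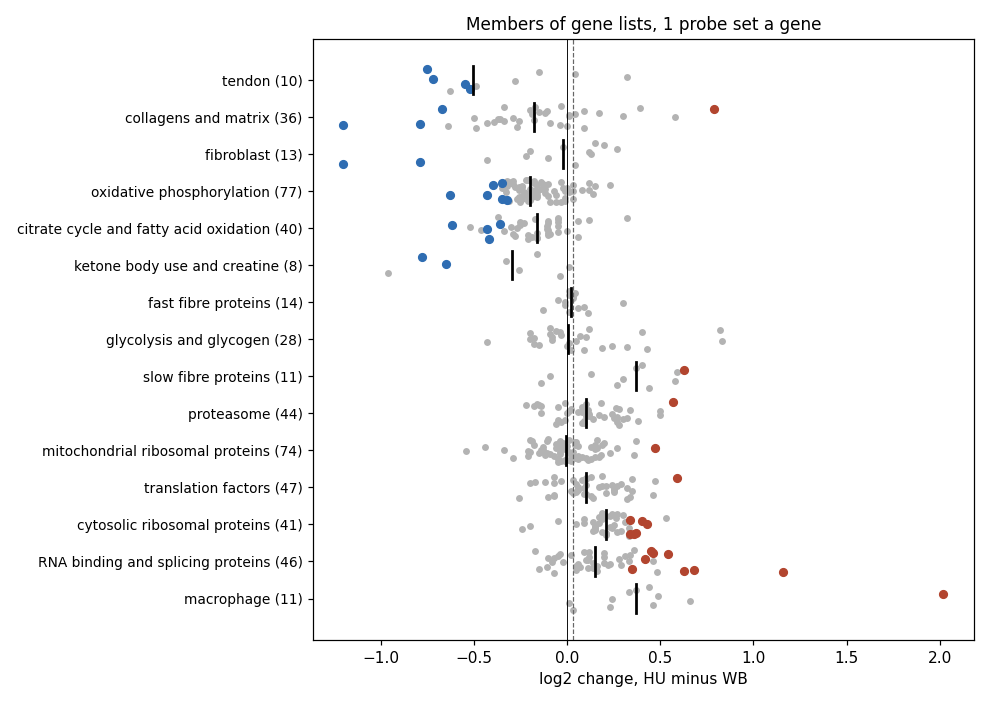
Log2 change, HU minus WB (x), of each tested member of 15 gene lists (rows, with the number of members), 1 probe set a gene; red and blue points were called higher and lower, black bars are list medians and the dashed line is the median of all probe sets tested (0.03). Tendon (-0.50), ketone (-0.29), oxidative phosphorylation (-0.20) and matrix (-0.18) medians lie left of the dashed line, and slow fibre (0.37), macrophage (0.37) and cytosolic ribosomal (0.21) medians right of it.

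Genes of protein breakdown were called in small numbers. Of 31 tested ubiquitin ligases, conjugating enzymes and deubiquitinases 2 were higher and 0 lower (median 0.05). Over all probe sets tested, 2.57% were higher and 1.7% lower. Several members of these lists were chosen by the study on these same arrays, so their direction is not independent evidence. Fbxo9, an F-box subunit of a ubiquitin ligase, read 179, 215, 235 and 218 in HU muscle and 111, 132, 122 and 102 in WB muscle (0.86 ± 0.11, adjusted p = 0.0077). Cul4a, a scaffold of another ligase family, read 60.5, 48, 58 and 52.7 in HU muscle and 42.8, 40.9, 33.2 and 38.5 in WB muscle (0.50 ± 0.11, adjusted p = 0.034). Fbxo9 kept its call without each array in turn, and Cul4a in 1 of the 8 fits. Of 44 proteasome genes 1 was called, the assembly chaperone Psmg4 (0.57 ± 0.13, adjusted p = 0.043), and the median was 0.10. Ctsl, the lysosomal protease cathepsin L, read 723, 485, 692 and 636 in HU muscle and 415, 423, 400 and 464 in WB muscle (0.56 ± 0.12, adjusted p = 0.039), alone among 32 lysosome and autophagy genes. The Psmg4 and Ctsl calls each held in only 1 of the 8 fits that left out 1 array. Capns1, the small calpain subunit, gave 0.47 ± 0.12 (adjusted p = 0.057).

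Lists of receptor, stress and growth pathways each held between 0 and 3 higher calls, where 2.57% of all probe sets tested were higher. In the list for the neuromuscular junction and denervation 2 of 7 tested genes were higher: Chrnb1, described above, and Rapsn (rapsyn, which clusters acetylcholine receptors), at 44.7, 39.9, 44.7 and 46.1 in HU muscle and 34.7, 34.3, 32.6 and 34.2 in WB muscle (0.37 ± 0.08, adjusted p = 0.03). In the myostatin, TGF-beta and BMP list 3 of 21 were higher, namely Tmem100, Tgfbr1 (a TGF-beta receptor, 0.66 ± 0.14) and Id3 (a BMP-induced inhibitor of helix-loop-helix factors, 0.53 ± 0.13). The Rapsn call held in only 2 of the 8 fits that left out 1 array, and the Tgfbr1 and Id3 calls in 1 each. Id3 read between 19.5 and 30.5 in WB muscle, near the array floor. Of 10 tested genes of NF-kappaB and the TNF receptor family only Tnfrsf12a was called. Of 25 genes of IGF, Akt and FoxO 0 were called, and Igfbp5, a binding protein of IGF, gave -0.50 ± 0.18 (adjusted p = 0.12). Ddit3 (CHOP), a factor of the amino acid and unfolded protein stress response, rose to 33.9, 35.7, 33.8 and 43.1 in HU muscle, against 23, 21.6, 27.1 and 21 in WB muscle (0.66 ± 0.11, adjusted p = 0.018), while Nupr1 of the same list fell by 0.50 ± 0.10 in log2 units (adjusted p = 0.029). Gpx4 and Gpx1, peroxide-reducing selenoproteins, rose by 0.45 ± 0.08 and 0.43 ± 0.10 (adjusted p = 0.023 and 0.048), but Gpx1 was called in 0 of the 8 fits that left out 1 array (adjusted p between 0.065 and 0.097). Ccnd2, a cyclin of the G1 phase, fell by 0.58 ± 0.12 in log2 units (adjusted p = 0.027), and Nr1d1, the clock repressor REV-ERB alpha, rose by 0.80 ± 0.20 (adjusted p = 0.049), a call that was lost with the 16 arrays, where 0 of 11 clock genes were called.

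Markers of other cells differed among the HU mice. All 11 tested macrophage markers had a positive change, with a median of 0.37, and 1, Lgals3, was called. The share of all probe sets tested that were higher was 2.57%, and 1.7% were lower. The mean log2 level of the macrophage markers over the WB mean was 0.91, 0.55, 0.22 and 0.25 in HU replicates 1 to 4, and their summed intensity ran between 843 and 1325 in HU muscle and between 708 and 913 in WB muscle. The defining markers Adgre1 and Csf1r gave 0.03 ± 0.10 and 0.01 ± 0.10. Their part in the HU replicate 1 values of Sln, Ankrd1 and Lgals3 was not tested. Endothelial markers had 1 of 12 called (Egfl7, 0.48 ± 0.11, adjusted p = 0.046, with 10 of the 12 values negative and a median of -0.12), and smooth muscle and pericyte markers 0 of 6 (median -0.14). The other Egfl7 probe sets were not called (0.38 and 0.29, adjusted p = 0.051 and 0.095). Schwann cell markers were 2, Mbp and Pmp22, and neither was called: Mbp read 187 to 311 in HU muscle and 129 to 287 in WB muscle, and Pmp22 read 256 to 353 in HU muscle and 183 to 365 in WB muscle. Sdc4, a heparan sulfate proteoglycan also used as a satellite cell marker, read 17.4, 25.2, 146 and 188 in HU muscle and 118, 25.8, 88.3 and 108 in WB muscle, so low and high mice occurred in both groups.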

How the data were processed

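The authors deposited 1 table of linear intensity values for 24 arrays, made per the labels and methods with GCOS and with the robust multi-array average (RMA) and quantile normalization. Raw image values were not used here. The Bcl3-/- arrays had medians of 81.1 to 86.8, against 11.6 to 11.9 in the other 16, so the wild type arrays were fitted alone. Values were taken to log2. Probe sets above 20 on at least 4 of the 8 wild type arrays were tested with limma 3.58.1 in R 4.3.3 (lmFit, eBayes; 6 residual and 4.28 prior degrees of freedom), two-sided, with Benjamini-Hochberg adjustment at 0.05. The step was tested on simulated data. The small number of arrays limits the precision, and array data carry no read depth.

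Genes came from the platform annotation: 20380 probe sets had 1 gene, 691 several and 1555 none listed, and of the called probe sets 43 higher and 13 lower had no single name. A gene on a list was represented by its probe set of highest mean log2 intensity.

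Named genes were, in each direction, the 12 called probe sets of largest change with all 8 arrays above 20, the 5 with an array at or under 20, the 5 of largest difference in mean intensity, and up to 4 called members of each list (otherwise up to 2 of highest intensity). Others were chosen after their values were seen, among them genes called in every leave-one-out fit. The comparison and gene lists were chosen with earlier results of these data known. Alternatives changed the filter, scaling, pseudocount, variance model, arrays, fold and test.

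Promoter sequences are RefSeq's (GRCm38.p6), 148 of the higher and 102 of the lower genes having one, with the first listed start used.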

Additional observations from a re-analysis of the deposited data

Results flagged for a closer look

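In 16 of 222 groups of 4 mice tested (111 named probe sets in HU and WB muscle) 1 mouse stood far from the other 3, and chance flags about 1 in 20 groups. Among HU mice, replicate 1 was low for Pcp4l1, a Purkinje-cell protein relative (13, against 18.6 to 19.1 in the other HU mice). HU replicate 2 was high for Col1a1 (545, against 450 to 459) and for Eno3, muscle enolase (6163, against 5953 to 5973). HU replicate 4 was low for Postn (87.7, against 134 to 143).

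WB replicates 3 and 4 held 6 of the 16 each. WB replicate 4 was high for Gdpd3 (92.4, against 5.45 to 6.19) and low for Golm1 (93.8, against 107 to 109), Psmg4 (15.9, against 21.5 to 22.5), Capns1 (233, against 297 to 308), Hadh (1252, against 1529 to 1578) and Itga7 (24.2, against 31.1 to 32.5). WB replicate 3 was high for Tnni1 (297, against 216 to 227), for the antigen presentation genes B2m (464, against 346 to 355) and H2-D1 (196, against 140 to 141), for Egfl7 (61.8, against 48.2 to 49.1), for the adipocyte lipid carrier Fabp4 (808, against 695 to 712) and for Sdc3 (41.5, against 34.3 to 35.1).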

How the results depend on the processing

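None of the 83 named probe sets that were called reversed its direction under the alternatives run; named probe sets that were not called did change sign, as Sdc4 did (log2 change -0.88 to 0.27 with 1 array left out). The 240 higher and 159 lower calls became 151 and 99 with no intensity filter, 57 and 35 with the study's filter (1508 probe sets), 139 and 84 at a fold of at least 1.4, 500 and 348 with 16 arrays, 567 and 341 with all 24 arrays, 1106 and 960 with array weights, 275 and 298 after a second quantile normalization, 7 and 12 by the methods' t-test after Benjamini-Hochberg, and 162 and 105 by its q-values. When single arrays were dropped in turn the calls ran between 43 and 395 (higher) and between 29 and 222 (lower); the causes of these shifts were not tested. Without HU replicates 1 and 2 together, chosen after seeing the data, there were 684 and 415 calls, and with 16 arrays without HU replicate 1, also chosen after seeing the data, 361 and 236. Without WB replicate 4, 42.2% of calls were higher. Of the 83 named probe sets, 75 were called with 16 arrays and 22 without each array in turn.

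The replicate numbers did not pair the mice (correlations of deviations -0.085 to 0.0726); with the replicate number as a block there were 76 higher and 53 lower calls. For genes at or under the array floor the size of the change is uncertain, and whether it was understated or overstated was not tested. The 4 mice a group limit the calls: 2244 probe sets had an unadjusted p under 0.05.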

Other observations

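A few more genes, chosen after their values were seen, were called without each array in turn. S100a4, a calcium-binding protein of motile and stromal cells, read 59.3, 61.1, 61.6 and 68.4 in HU muscle and 34.8, 34.3, 37.8 and 36.7 in WB muscle (0.80 ± 0.08, limma adjusted p = 0.0014). Snrpd3, a core protein of spliceosomal particles, rose by 0.84 ± 0.14 and 0.80 ± 0.14 at 2 probe sets and gave -0.07 ± 0.10 at the other, so its probe sets disagreed. Ptch1, the receptor of hedgehog ligands, read 39.6, 40.7, 44.6 and 44.3 in HU muscle and 24.7, 24.7, 31.2 and 24.5 in WB muscle (0.69 ± 0.10, adjusted p = 0.0097). Cygb, the fibroblast globin cytoglobin, rose by 0.53 ± 0.08 (adjusted p = 0.014). Fdx1, the mitochondrial iron-sulfur protein adrenodoxin, read 167, 207, 181 and 184 in HU muscle and 310, 285, 259 and 272 in WB muscle (-0.61 ± 0.09, adjusted p = 0.012). None of these 5 genes had overlapping groups at the probe set first named.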
